A study of Homo sapiens with 6 samples.

Results

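The genes described here serve the loading of peptides onto MHC class I molecules, the cell surface proteins that show fragments of intracellular proteins to CD8 T cells. They are TAP1 and TAP2, the 2 subunits of the transporter that moves peptides from the cytosol into the endoplasmic reticulum; TAPBP, which encodes the chaperone tapasin; TAPBPL, which encodes the tapasin-related editor TAPBPR; ERAP1 and ERAP2, which encode aminopeptidases that trim peptides to fit the class I groove; and NLRC5, a transcriptional activator of class I genes. A probe set was taken for a member when the authors' deposited annotation gave it the member's NCBI gene identifier and no other. This gave 23 of 49395 probe sets and 7 of 18712 genes, and no probe set with several identifiers included a member.

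The arrays measured RNA of U251, a human glioma cell line, carrying lentiviral short hairpin RNA against CPVL (shCPVL, 3 arrays) or a control hairpin (shCtrl, 3 arrays). CPVL encodes a serine carboxypeptidase. The comparison asks which genes change with the level of CPVL. The labels name 1 knockdown group, so reduced CPVL and any other effect of its hairpin cannot be told apart. Whether the replicates came from separate cultures is not stated either, and the p-values therefore reflect array-to-array spread that could be technical.

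Class I molecules are assembled in a loading complex in which tapasin holds an empty heavy chain next to the TAP transporter until a peptide of sufficient affinity binds. Peptides are cut by the proteasome, carried through TAP and shortened by ERAP1 and ERAP2 in the lumen, while TAPBPR edits peptides outside the complex. Interferons raise many of these genes through STAT and IRF factors, which bind the GAAA repeats of the interferon-stimulated response element (ISRE) in their promoters, and NLRC5 adds a second input at class I promoters. Tumour cells, gliomas among them, often carry low levels of this machinery.

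The promoter windows of 5 members are shown because each holds the GAAA repeat that interferon-activated factors recognise. They are RefSeq sequences of GRCh38.p14, from 250 bases before to 50 bases after an annotated start, written 5′ to 3′ on the gene's own strand. Capitals mark matches to the ISRE core GAAANNGAAA or, on the other strand, TTTCNNTTTC. Windows were found for 6 of the 7 members, all but NLRC5, and those 6 had 10 windows.
TAP1, chr6:32853655-32853954, minus strand: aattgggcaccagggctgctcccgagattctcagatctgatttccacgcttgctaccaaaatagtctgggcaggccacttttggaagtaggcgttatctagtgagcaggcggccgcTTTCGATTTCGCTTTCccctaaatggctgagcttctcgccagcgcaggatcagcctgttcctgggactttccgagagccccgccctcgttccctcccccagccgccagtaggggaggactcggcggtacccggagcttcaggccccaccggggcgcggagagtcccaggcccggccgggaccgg
TAP2, chr6:32838690-32838989, minus strand: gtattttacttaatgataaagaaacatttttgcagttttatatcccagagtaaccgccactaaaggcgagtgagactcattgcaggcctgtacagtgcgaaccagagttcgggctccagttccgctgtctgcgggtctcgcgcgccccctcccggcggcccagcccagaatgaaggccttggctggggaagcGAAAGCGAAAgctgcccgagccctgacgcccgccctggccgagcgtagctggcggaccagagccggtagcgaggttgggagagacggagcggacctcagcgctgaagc
TAPBP, chr6:33314029-33314328, minus strand: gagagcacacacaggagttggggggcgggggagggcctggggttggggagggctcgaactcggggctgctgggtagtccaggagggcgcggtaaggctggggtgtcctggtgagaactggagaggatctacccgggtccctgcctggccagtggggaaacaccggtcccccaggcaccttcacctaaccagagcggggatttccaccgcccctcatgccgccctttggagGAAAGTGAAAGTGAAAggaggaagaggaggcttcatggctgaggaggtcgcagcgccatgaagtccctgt
ERAP1, chr5:96807896-96808195, minus strand: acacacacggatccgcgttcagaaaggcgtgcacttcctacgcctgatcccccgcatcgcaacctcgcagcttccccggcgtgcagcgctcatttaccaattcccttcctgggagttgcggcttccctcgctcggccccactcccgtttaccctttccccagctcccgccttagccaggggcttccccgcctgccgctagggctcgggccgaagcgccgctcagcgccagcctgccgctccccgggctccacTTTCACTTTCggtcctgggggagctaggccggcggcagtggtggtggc
ERAP2, chr5:96876250-96876549, plus strand: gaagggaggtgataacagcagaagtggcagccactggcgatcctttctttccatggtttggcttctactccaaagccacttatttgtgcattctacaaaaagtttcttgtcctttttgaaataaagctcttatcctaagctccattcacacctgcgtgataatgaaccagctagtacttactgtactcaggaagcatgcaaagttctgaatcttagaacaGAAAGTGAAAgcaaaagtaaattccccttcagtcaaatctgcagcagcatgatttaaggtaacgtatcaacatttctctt

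In TAP1 and TAPBP 2 matches overlap, and the other windows shown hold 1 match each. The matches lay between bases -134 and -119 from the start in TAP1, -58 and -49 in TAP2, -20 and -5 in TAPBP, 3 and 12 in ERAP1 and -30 and -21 in ERAP2. TAP1, ERAP1 and ERAP2 each had another window, not shown, which held no such match, nor did either window of TAPBPL. The window shown was that of the more upstream start in TAP1, but of the more downstream start in ERAP1 and ERAP2. Of all 35116 promoter windows in the table, 3.57% held the core on either strand. TAP1 also held an NF-kB motif at -72 to -63, which is in 0.558% of all windows, and its second window held the STAT letters TTCNNNGAA, which are in 7.66%. The GC box GGGCGG, in 44.95% of all windows, was found in 6 of the 10. A match is a description of letters and was not tested for binding.

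**Figure D1:**
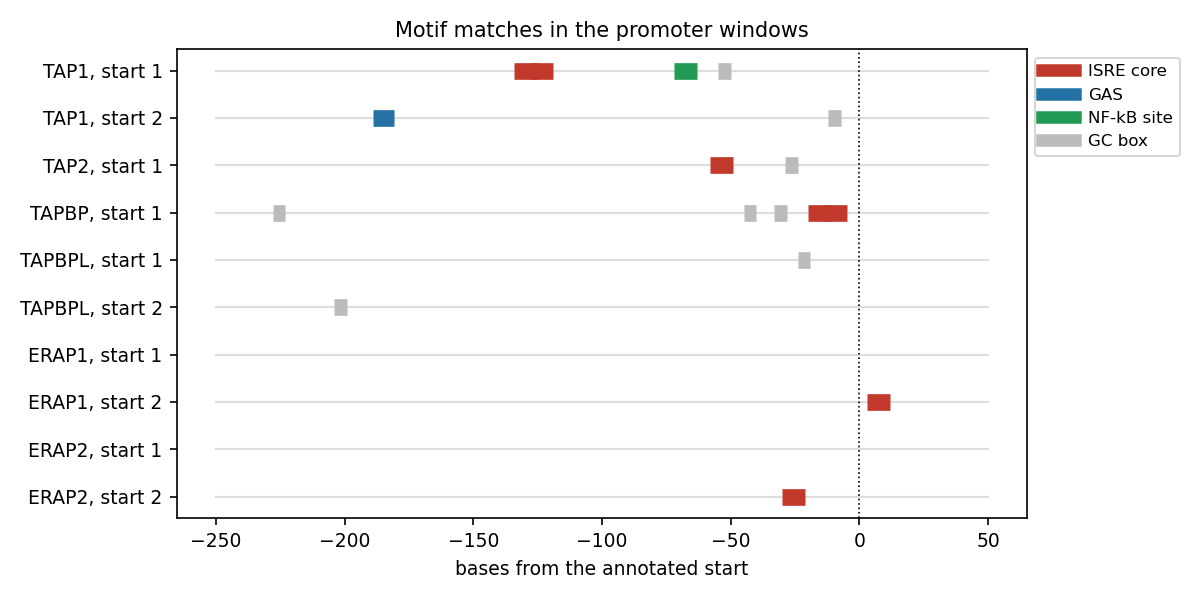
Positions of motif matches in the 10 promoter windows of 6 members, in bases from the annotated start (dotted line), with red for the ISRE core, blue for the STAT (GAS) letters, green for the NF-kB letters and grey for the GC box. ISRE core matches lie before the start in TAP1, TAP2, TAPBP and ERAP2 and just after it in ERAP1.

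Expression values are log2 RMA values, on which a difference of 1 is a change by a factor of 2. The probe set with the highest mean of all 6 arrays stood for its gene. A gene was called when its limma p, adjusted by Benjamini-Hochberg over all 18712 genes, was under 0.05. Within a group, r between arrays was 0.9974 to 0.9986, and array medians were 6.85 to 6.87. The knockdown target CPVL was at 7.38, 7.25 and 7.21 in shCPVL arrays, against 8.24, 8.39 and 8.18 in shCtrl arrays, a fall of 0.99 (SE 0.07, adjusted p = 8.29e-05). The 18 probe sets for spiked-in hybridisation controls averaged 11.04 in shCPVL and 10.74 in shCtrl, a difference of 0.31. The 3′ minus 5′ differences of the actin and GAPDH control probe sets, a measure of RNA integrity, averaged 0.30 and -0.06 in shCPVL, against 0.29 and -0.06 in shCtrl. The GC-matched background probe sets averaged 4.91 in shCPVL and 4.95 in shCtrl. They ranged from 2.72 to 11.50 with a median of 3.59, so their mean lies above their median.

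Most peptide loading genes were higher in shCPVL cells, with large changes in TAP1 and NLRC5, a moderate one in TAP2 and small ones in the genes for tapasin and the trimming enzymes. Of the 7 members 6 rose, 0 fell and 1, TAPBPL, was not called, where 20.1% of all genes were called, 8.45% as higher and 11.6% as lower. The members' median difference was 0.32, against -0.01 over all genes. In all 7 members every shCPVL array lay above every shCtrl array, as in 16.1% of all genes. With a fold of at least 1.5, TAP1, TAP2 and NLRC5 remained, where 1.22% of all genes were that much higher. The count of all genes that rose, 1581, was 949 without shCPVL replicate 2 and 988 without shCtrl replicate 1, which changes that background but left 5 members called in each case. In RNA of whole cultures, a change in the number of cells that express a gene and a change of RNA per cell cannot be told apart.

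**Figure D2:**
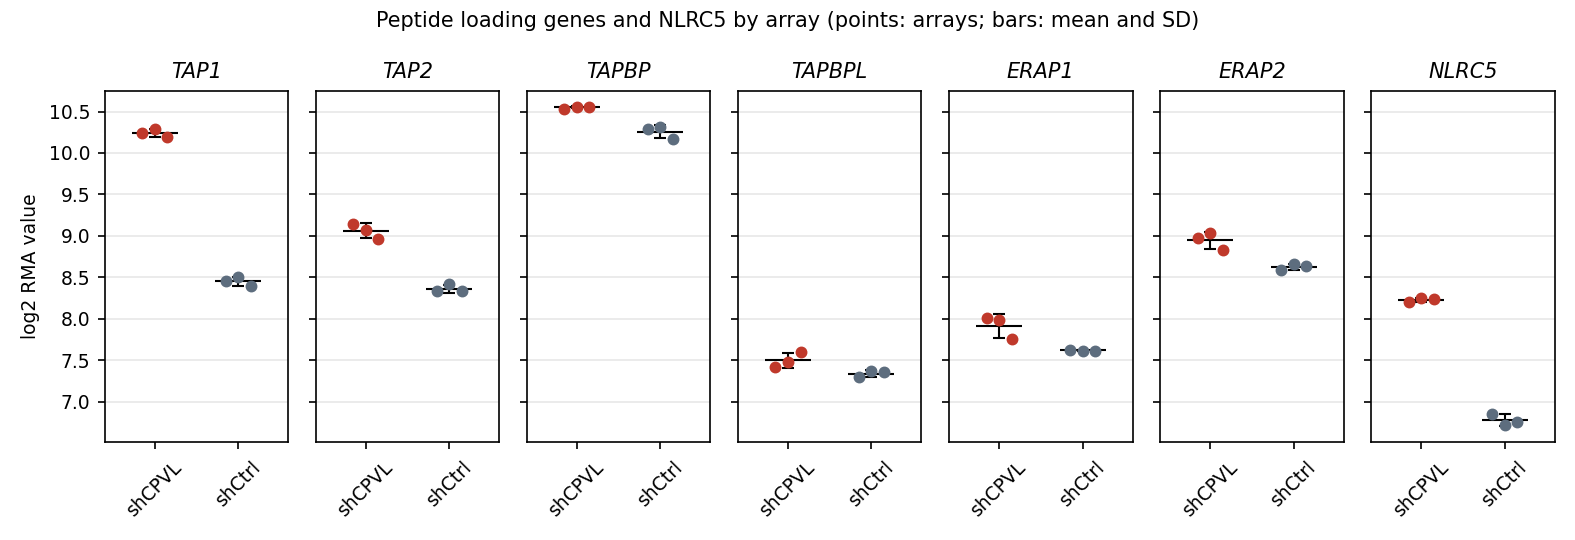
Log2 RMA value of the probe set that stands for each member, on every array, with shCPVL left of shCtrl; points are arrays, and black bars are the mean and SD of 3 arrays. The groups are separate in all 7 panels, by 1.78 on average in TAP1 and by 0.16 in TAPBPL.

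TAP1, a subunit of the peptide transporter, ranked 34 of 18712 genes by its difference, counted from the highest. Its values were 10.24, 10.28 and 10.19 in shCPVL arrays, against 8.45, 8.51 and 8.40 in shCtrl arrays. The groups were far apart, with arrays of a group within about 0.1 of each other. The mean was 10.24 ± 0.05 in shCPVL and 8.45 ± 0.05 in shCtrl (SD, n = 3 each), a difference of 1.78 (SE 0.05) or 3.44-fold, with a 95% interval of 3.17-fold to 3.74-fold (limma adjusted p = 5.96e-07). The probe set is placed at chr6:32812985-32813385, minus strand, by the authors' deposited table, which names no genome build. The other TAP1 probe set, aligned over chr6:32812825-32821879, was at 9.52, 9.51 and 9.50 in shCPVL, against 7.90, 7.99 and 7.69 in shCtrl, a difference of 1.65 (SE 0.08). The 2 probe sets of TAP1 thus rose 3.44-fold and 3.13-fold.

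TAP2, the partner without which TAP1 forms no transporter, rose less. Its values were 9.15, 9.08 and 8.97 in shCPVL arrays, against 8.33, 8.42 and 8.33 in shCtrl arrays. The lowest shCPVL array stood well above the highest shCtrl array. The difference was 0.70 (SE 0.06) or 1.63-fold, with a 95% interval of 1.48-fold to 1.79-fold (adjusted p = 1.88e-04). Where 7.93% of all probe sets rose, each of the 4 TAP2 probe sets did, by 0.40 to 0.83. The 2 that rose least, at 0.40 and 0.44, were also the dimmer ones, at 6.90 and 6.92 in shCtrl. The one that rose most, by 0.83, was at 7.17 in shCtrl, and the brightest, at 8.36, rose by 0.70.

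By the probe sets that stand for them, the subunits of the transporter changed by unequal amounts. Within each array, the TAP1 value minus the TAP2 value was 1.09 to 1.22 in shCPVL, against 0.07 to 0.12 in shCtrl. The size of this difference does not compare the genes. Its change can also depend on the probe sets, as those of a single gene changed unequally too, by 1.45 and 0.47 in NLRC5. The part of this in the TAP1 and TAP2 values was not tested. The change of TAP1 exceeded that of TAP2 by 1.08 (SE 0.05, 95% interval 0.95 to 1.21). With 3 against 3 arrays the two-sided exact permutation test cannot go below p = 0.1, which it gave here (0.3 when adjusted over the 3 pairs compared).

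TAPBP, the gene of tapasin, was higher by a small amount. It was at 10.54, 10.55 and 10.56 in shCPVL arrays, against 10.28, 10.32 and 10.17 in shCtrl arrays. The shCPVL arrays were nearly equal, and shCtrl replicate 3 was the lowest of its group. The difference was 0.29 (SE 0.05) or 1.23-fold, with a 95% interval of 1.12-fold to 1.34-fold (adjusted p = 0.00704). All 5 TAPBP probe sets had every shCPVL array above every shCtrl array, with differences of 0.15 to 0.34, and 2 of them were called. Taking the median over the gene's probe sets ended the call (0.15, adjusted p = 0.151). The difference has about the size of that of the hybridisation controls (0.31), as have those of ERAP1 and ERAP2 given below, and the part of the controls' shift in them was not tested.

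TAPBPL, the gene of the tapasin relative TAPBPR, did not pass. Its values were 7.42, 7.48 and 7.60 in shCPVL arrays, against 7.29, 7.37 and 7.36 in shCtrl arrays. The groups did not overlap but came within 0.1 of each other. The difference was 0.16 (SE 0.06), with a 95% interval of 0.02 to 0.30 (adjusted p = 0.110). The second TAPBPL probe set was at 4.92 ± 0.09 in shCPVL and 4.81 ± 0.14 in shCtrl (SD, n = 3 each). These levels are near the mean of the background probe sets but above their median of 3.59. Between tapasin and its relative, the difference of changes was 0.13 (SE 0.07, 95% interval -0.07 to 0.34, exact permutation p = 0.2).

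The trimming enzymes were also slightly higher, and their probe sets were not equally clear. ERAP2, an aminopeptidase of the endoplasmic reticulum, was at 8.98, 9.03 and 8.83 in shCPVL arrays, against 8.59, 8.66 and 8.63 in shCtrl arrays. The difference was 0.32 (SE 0.06) or 1.25-fold, with a 95% interval of 1.13-fold to 1.38-fold (adjusted p = 0.00868). Where 7.93% of all probe sets were called as higher, all 3 ERAP2 probe sets were, with differences of 0.26 to 0.32. In each of them shCPVL replicate 3 was the lowest shCPVL array.

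ERAP1, which trims precursors to the length that class I molecules bind, was at 8.01, 7.99 and 7.75 in shCPVL arrays, against 7.63, 7.62 and 7.61 in shCtrl arrays. Here too shCPVL replicate 3 was nearest to the shCtrl arrays. The difference was 0.30 (SE 0.07) or 1.23-fold, with a 95% interval of 1.09-fold to 1.38-fold (adjusted p = 0.0236). This rested on 1 probe set, whose suffix s_at marks probes that can match several transcripts. The other 4 ERAP1 probe sets differed by -0.07 to 0.16 and none was called (adjusted p = 0.0872 to 0.673). With the median of the probe sets the difference was 0.07 (adjusted p = 0.549), and without x_at and s_at probe sets it was 0.08 (adjusted p = 0.351). The call was also lost when any 1 array other than shCPVL replicate 3 was left out (adjusted p = 0.0576 to 0.0964). By these probe sets the changes of ERAP1 and ERAP2 differed by -0.02 (SE 0.04, 95% interval -0.13 to 0.09, exact permutation p = 0.5), and the sign of that difference turned when shCPVL replicate 3 (0.0015) or shCtrl replicate 1 (0.0005) was left out.

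NLRC5, the class I activator, showed the second largest change of the members. Its values were 8.20, 8.25 and 8.23 in shCPVL arrays, against 6.85, 6.71 and 6.75 in shCtrl arrays. The groups were separated by more than the whole spread within either. The mean was 8.23 ± 0.02 in shCPVL and 6.77 ± 0.07 in shCtrl (SD, n = 3 each), a difference of 1.45 (SE 0.05) or 2.74-fold, with a 95% interval of 2.51-fold to 2.98-fold (adjusted p = 2.02e-06). It ranked 48 of 18712 genes. The probe set carries the suffix s_at and is placed at chr16:57059673-57117431, plus strand, by the authors' deposited table. The second NLRC5 probe set was at 5.38, 5.20 and 5.17 in shCPVL, against 4.70, 4.91 and 4.72 in shCtrl. The shCtrl values were close to the 4.95 that background probe sets averaged in shCtrl, but above their median of 3.59. This second probe set differed by 0.47 (SE 0.08, limma adjusted p = 0.0039 over all probe sets), so both were called at unequal sizes. With the mean of the 2 probe sets the difference was 0.96, and without x_at and s_at probe sets it was 0.47. Low signal compresses log2 differences, and the part of that in the smaller value was not tested.

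**Figure D3:**
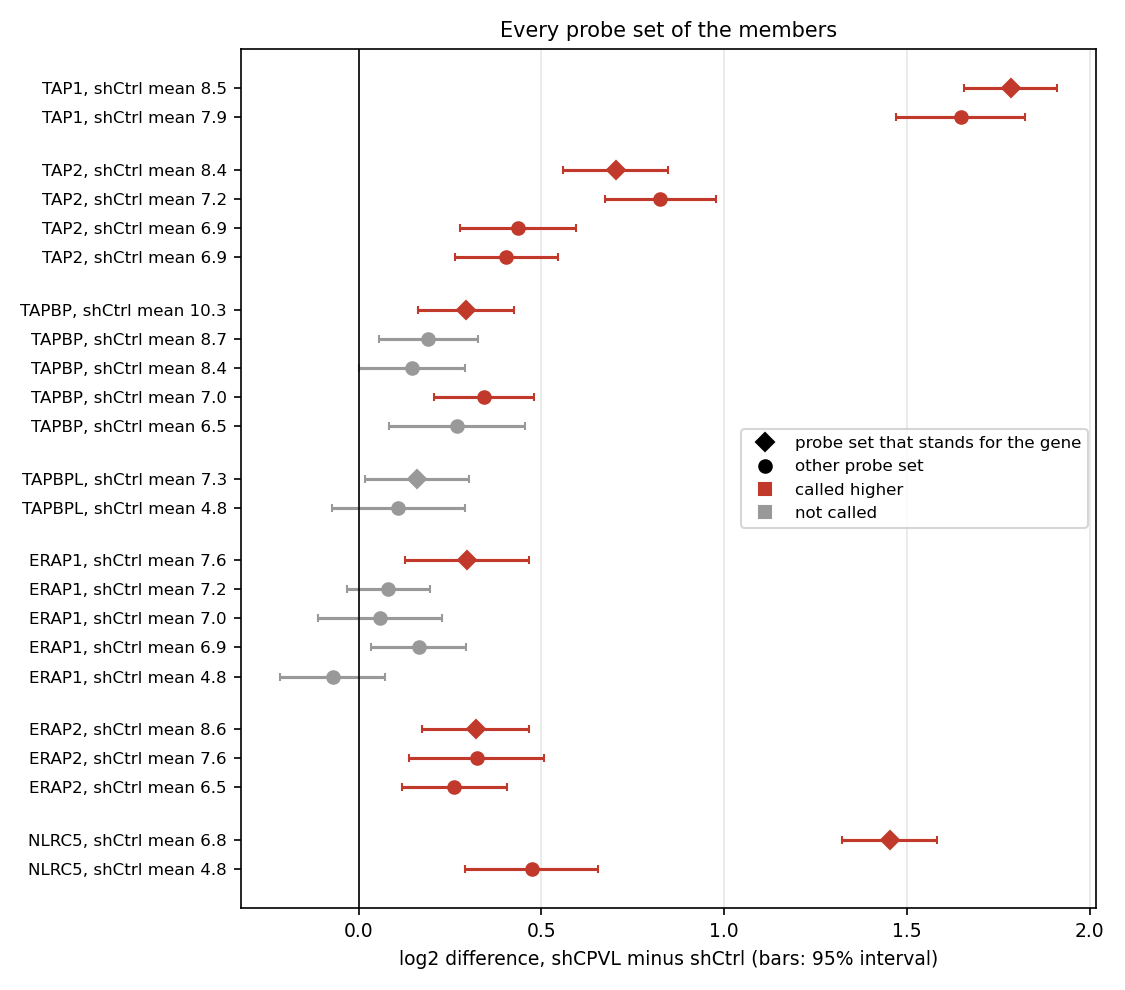
Log2 difference (shCPVL minus shCtrl) of each of the 23 probe sets of the members with its 95% interval, labelled with the mean log2 value in shCtrl; diamonds stand for the gene, red marks called probe sets and grey the others. Both TAP1 probe sets lie at 1.65 or above, the 2 NLRC5 probe sets lie apart at 1.45 and 0.47, and 1 of 5 ERAP1 probe sets is called.

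Over all 23 probe sets of the members, 14 rose and 0 fell, where 18.5% of all 49293 probe sets were called, 7.93% as higher and 10.6% as lower. In 20 the groups did not overlap with shCPVL higher, as in 15.7% of all probe sets. The authors' deposited table gave an FDR under 0.05 for 16 of the 23. The probe set with a negative difference was a dim one of ERAP1, at 4.76 ± 0.06 in shCPVL and 4.83 ± 0.08 in shCtrl (SD, n = 3 each).

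TAP1 and TAP2 sit in the class II region of the MHC on chromosome 6, in a row with the immunoproteasome genes PSMB8 and PSMB9. The order by start is TAP2, PSMB8, TAP1, PSMB9. All 4 rose. PSMB8 was at 10.80 ± 0.01 in shCPVL and 9.55 ± 0.08 in shCtrl, and PSMB9 at 9.44 ± 0.02 in shCPVL and 7.51 ± 0.04 in shCtrl (SD, n = 3 each). TAP1 and PSMB9 are read in opposite directions from starts 488 bases apart in RefSeq GRCh38.p14, so the TAP1 window shown above extends into the region between them and shares 13 bases with the PSMB9 window. Their differences, 1.78 and 1.92, were close. The class II genes on either side did not pass, with differences of 0.07 (HLA-DQA1), 0.02 (HLA-DQB1), 0.01 (HLA-DOB) and -0.05 (HLA-DMB). These class II genes were dim except HLA-DQB1, which was at 7.40 in shCPVL and 7.38 in shCtrl.

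Neighbours of the other members moved in both directions or were not called. Next to TAPBP, also on chromosome 6, none of the 6 neighbours rose, and RGL2 (-0.16) and KIFC1 (-0.28) fell. ERAP1 and ERAP2 are neighbours on chromosome 5. Beside them LNPEP, which encodes a related aminopeptidase, differed by 0.14 (adjusted p = 0.238), CAST fell by 0.39, and ELL2 rose by 0.24. Around NLRC5 on chromosome 16 none of the 6 neighbours was called, and the greatest difference was 0.18 (RSPRY1, adjusted p = 0.0626). The genes directly beside TAPBPL on chromosome 12, CD27 (0.00) and VAMP1 (0.06), were not called. Farther out LTBR, a receptor gene, rose by 0.19, SCNN1A rose by 0.32, and NCAPD2 fell by 0.43.

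**Figure D4:**
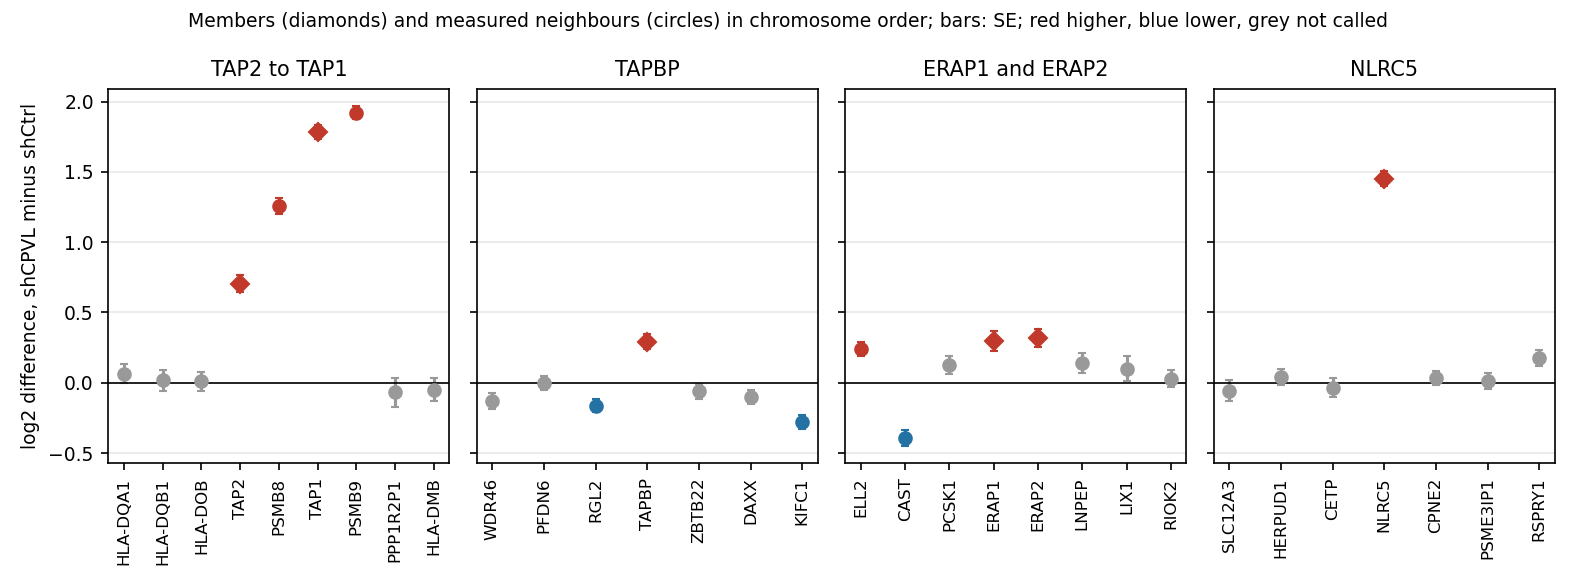
Log2 difference (shCPVL minus shCtrl) with its SE for members (diamonds) and their measured neighbours (circles), in order of start along the chromosome; red rose, blue fell and grey was not called. TAPBPL and its neighbours are not drawn. TAP2, PSMB8, TAP1 and PSMB9 form a run of called genes flanked by class II genes near 0, and NLRC5 stands alone among its neighbours.

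Among 60 other genes of class I presentation and its control, 16 rose and 9 fell, with a median difference of 0.02. Of all genes 8.45% rose and 11.6% fell, the shares beside which each count by role below is to be read. Of the 16 that rose, 6 were class I chains, 4 proteasome parts, 5 interferon path genes and 1 a peptidase. Of 7 class I chain genes 6 rose, among them HLA-F by 2.19, HLA-C by 1.43, HLA-E by 0.69, HLA-B (12.88 ± 0.04 in shCPVL and 11.38 ± 0.04 in shCtrl), and B2M, the shared light chain, by 0.47 (SE 0.05). HLA-G was at 7.37 ± 0.02 in shCPVL and 7.12 ± 0.16 in shCtrl (SD, n = 3 each) and did not pass. Class I genes are near-identical in sequence, so probes of one can read another.

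Of 10 proteasome genes 4 rose and 1 fell. Besides PSMB8 and PSMB9, the activator genes PSME2 (0.64, SE 0.05) and PSME1 (0.54, SE 0.06) rose, while the nuclear activator gene PSME3 fell by 0.22 (SE 0.06). The constitutive subunits that PSMB8, PSMB9 and PSMB10 replace were not called, at -0.02 (PSMB5), -0.12 (PSMB6) and -0.05 (PSMB7). The third inducible subunit, PSMB10, was at 9.90 ± 0.03 in shCPVL and 9.87 ± 0.06 in shCtrl (SD, n = 3 each), a value named after it was seen.

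Of 7 lumenal chaperones and folding enzymes other than the tapasin genes, 0 rose and 3 fell. CANX, which encodes calnexin, fell by 0.36 (SE 0.04), UGGT1, the glucosyltransferase that tags misfolded glycoproteins, by 0.28 (SE 0.05), and the glucosidase gene GANAB by 0.26 (SE 0.05). The calreticulin gene CALR (-0.13), the disulphide isomerase gene PDIA3 (0.07) and HSPA5 (0.03) did not pass. Of 7 other peptidases, LAP3, a cytosolic leucine aminopeptidase, rose by 0.96 (SE 0.07) and THOP1, an oligopeptidase of the cytosol, fell by 0.29 (SE 0.05). The others were not called, BLMH, NRDC and NPEPPS among them at -0.04, -0.07 and -0.10.

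NLRC5 acts at class I promoters together with other factors. Of 10 genes listed as class I promoter factors 0 rose and 1, NFYB, fell by 0.27 (SE 0.06), where 11.6% of all genes fell. EZH2 and CIITA are on this list without being counted as partners of NLRC5. RFX5 (0.09), EZH2 (-0.05) and CREB1 (-0.11) did not pass. The related activator of class II genes, CIITA, was at 7.34 ± 0.05 in shCPVL and 7.36 ± 0.21 in shCtrl (SD, n = 3 each), also named after its value was seen. Upstream, 5 of 13 interferon path genes rose, among them IRF9 by 2.07 (SE 0.06), STAT2 by 1.15 (SE 0.05), STAT3 by 0.56 (SE 0.04) and IRF1, a direct activator of TAP1 and class I genes, by 0.47 (SE 0.07). The receptor genes IFNAR1 and IFNAR2 fell by 0.28 and 0.27, named after their values were seen, and JAK1 (0.17), IFNGR1 (0.16) and TYK2 (-0.00) did not pass. Of the 6 remaining relatives, SEC61A1, a subunit of the channel through which proteins enter the endoplasmic reticulum, fell by 0.18 (SE 0.05). BCAP31 (-0.05), SEC61B (0.05) and NLRX1 (0.08) were not called. The count of these 60 genes that fell was 5 without shCPVL replicate 2 and 5 without shCtrl replicate 1.

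**Figure D5:**
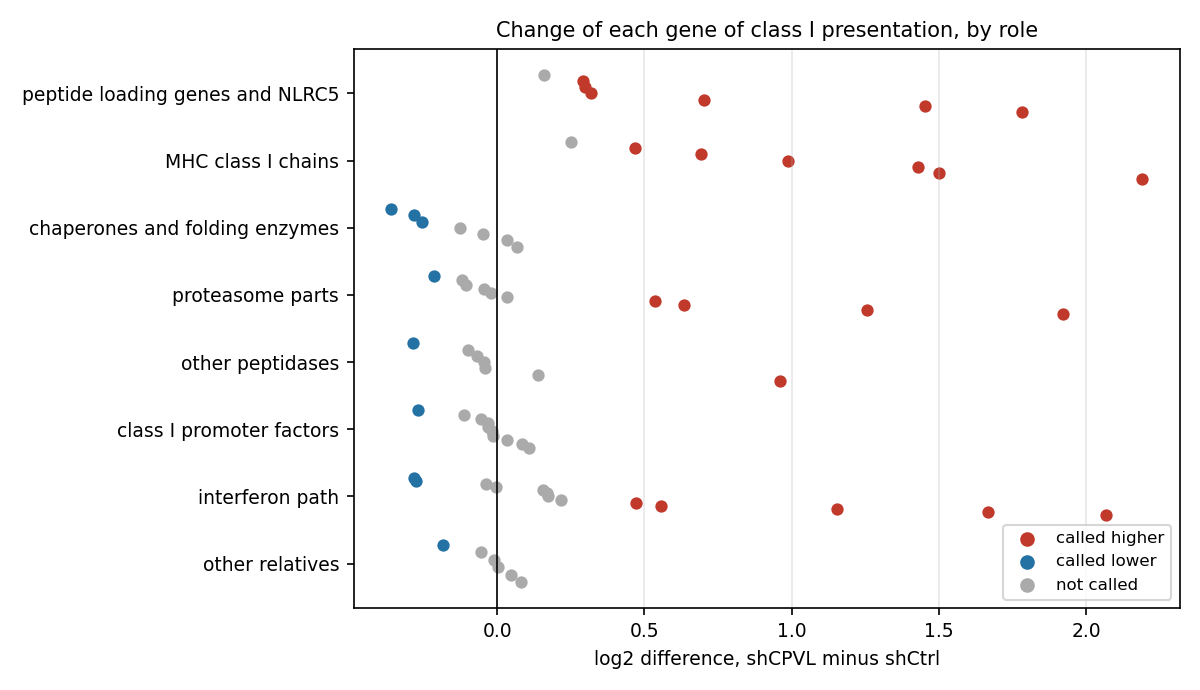
Log2 difference (shCPVL minus shCtrl) of each member and of 60 other genes of class I presentation, one point per gene, by role; red rose, blue fell and grey was not called. The points above 0.9 belong to the members, the class I chains, the proteasome parts, the interferon path and, among the peptidases, LAP3, while the chaperones lie between -0.36 and 0.07.

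The genes most like each strongly changed member were found by the Euclidean distance over the 6 arrays between log2 values centred on each gene's own mean. For TAP1 the 5 nearest of all genes included IFI35 (distance 0.103), HMOX1 (0.110), SP110 (0.128) and SP100 (0.176), where the median gene was at 2.21. For NLRC5 they were HLA-C (0.0748), HLA-B (0.135), REC8 (0.149), IFI16 (0.155) and EIF2AK2 (0.175), with a median of 1.80. For TAP2 they were GPRC5A (0.0339), FILIP1L (0.0697), CHIC2 (0.0764), GLIPR1 (0.0817) and GPNMB (0.0830), with a median of 0.920. The measure takes up the size of the group difference and describes these 6 arrays only.

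Over all measured genes with a promoter window, the share that rose was set beside each motif, as a description with no test. Of 610 genes with the ISRE core 18.0% rose, against 8.25% of 14107 without it. For the NF-kB motif the shares were 21.4% of 103 genes with it, against 8.57% of 14614 without it. They were 10.4% with and 8.48% without the STAT letters, and 9.85% with and 6.35% without the GC box. The share that rose was higher with each of the 4 motifs, by unequal amounts. The share that fell was not set beside the motifs, and the reason for these differences was not tested.

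Markers of immune and vascular cells included none that passed as higher, though several were well above the background probe sets, which averaged 4.91 in shCPVL and 4.95 in shCtrl. Among 8 microglia and macrophage, 6 lymphocyte, 6 dendritic cell and 4 endothelial markers, 0 rose and 1, CD83, fell by 0.40, named after its value was seen. Of all genes 8.45% rose and 11.6% fell. The mean log2 level of the 8 microglia and macrophage markers was 5.60 to 5.80 in shCPVL arrays and 5.64 to 5.77 in shCtrl arrays, and that of the 6 lymphocyte markers was 5.69 to 5.75 in shCPVL and 5.71 to 5.79 in shCtrl. The dendritic cell markers averaged 6.83 to 6.93 in shCPVL and 6.86 to 7.05 in shCtrl, and the endothelial ones 6.70 to 6.72 in shCPVL and 6.71 to 6.75 in shCtrl. Single markers spanned a wide range, with PTPRC, the gene of the leukocyte antigen CD45, lowest at 3.37 in shCPVL and 3.41 in shCtrl, and the endothelial receptor gene KDR at 8.32 in shCPVL and 8.37 in shCtrl. Between them lay the macrophage markers TYROBP, at 7.65 in shCPVL and 7.57 in shCtrl, and CD68, at 7.26 in shCPVL and 7.03 in shCtrl (adjusted p = 0.107). The part of other cell types in the members' changes was not tested. Of 8 glioma and astroglial markers 3 fell and 0 rose. Those that fell were GFAP, at 9.17 in shCPVL and 10.17 in shCtrl, FABP7, by 0.68, and SLC1A3, by 0.56. VIM, at 14.29 in shCPVL and 14.24 in shCtrl, was not called.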

How the data were processed

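RNA of 3 shCPVL and 3 shCtrl arrays was compared. Log2 values of 49395 probe sets were deposited by the authors, and the submitters' processing notes name RMA (version and genome build not given in the sources used here). RMA gives all arrays one distribution, so a difference is relative to most other probe sets, and dim signals are compressed. The number of arrays limits the precision.

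Per the file headers, the authors' deposited comparison table gives the fold as a log2 value, as a linear ratio and as a signed score, beside p-values with their FDR. Its FDR, log2 fold, Entrez identifiers and alignments were used here. For the 23 member probe sets its log2 fold changes differed from the group mean differences by at most 0.000003. Of 46869 probe sets with exactly 1 identifier, 46726 matched a symbol in RefSeq GRCh38.p14, which gave 18712 genes.

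Genes, and separately all 49293 probe sets other than the 102 array controls, were fitted by limma 3.58.1 under R 4.3.3, using lmFit and then eBayes with no trend, with two-sided p-values adjusted by Benjamini-Hochberg. The step was tested on simulated data. Errors are SD over 3 arrays unless named SE. Pairs were compared by exact permutation. Motifs were searched on both strands with Python 3.11.15.

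The members and lists were chosen with earlier results of these data known. Named are all members, up to 5 called and 3 other genes per role, 3 neighbours on each side, and the 5 most alike genes, except that some items are not reported here. Alternatives changed normalization, variance model, probe set choice, filters, threshold and arrays.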

Additional observations from a re-analysis of the deposited data

How the results depend on the processing

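TAP1 (1.72 to 1.82), TAP2 (0.59 to 0.75) and NLRC5 (0.47 to 1.49) stayed called under all 19 alternatives, and so did CPVL. NLRC5 was 0.47 without x_at and s_at probe sets, 0.96 with its 2 probe sets averaged and at least 1.41 under the others. Testing against a minimum fold of 1.2 ended the calls of TAPBP (0.29), ERAP1 (0.30) and ERAP2 (0.32) and left 3 members, 5 member probe sets, 274 higher and 372 lower genes, 1538 probe sets and 0 lower pathway genes. The median of a gene's probe sets ended the calls of TAPBP (0.15) and ERAP1 (0.0697), and ERAP1 was also lost with their mean (0.11), without x_at and s_at probe sets (0.0819) and without moderation (0.30), which left 9 member probe sets. TAPBPL passed with array weights (0.17) and without the dimmest 40% (0.16). Array weights called 3851 higher and 5910 lower genes, 21693 probe sets and 25 higher pathway genes. With 1 array left out, ERAP1 was 0.25 to 0.38, higher genes numbered 949 to 1495, lower genes 1431 to 1924, probe sets 5648 to 8006, lower pathway genes 5 to 9, and ERAP1 minus ERAP2 lay between -0.0535 and 0.0015, positive without shCPVL replicate 3 (0.0015) or shCtrl replicate 1 (0.0005). With the median of probe sets it was -0.25, and TAPBP minus TAPBPL was 0.01. The causes were not tested. Same-numbered arrays deviated together at r = -0.28, 0.12 and 0.26, so the numbers were not taken as pairs. With the replicate number as a block, 6 members and 14 member probe sets were called, 1292 genes rose and 1787 fell, and no call of a member changed. The arrays' own detection calls were not used here, so levels near the mean of the background probe sets limit the dim probe sets of NLRC5, TAPBPL and ERAP1.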
